A study of Mus musculus with 10 samples.

Results

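The Trim30 and Trim34 cluster is a run of tripartite motif (Trim) genes on mouse chromosome 7. It is described here by 9 genes, taken by their symbols in the deposited table, which holds 22548 genes in all: Trim34a and Trim34b, Trim12a and Trim12c, Trim30a, Trim30b, Trim30c and Trim30d, and, farther along the same chromosome, Trim21. They were chosen because they share the cluster of Trim34a or its family, and Trim34a itself was picked from the values of myeloma-bearing against control mice. Values of the 9 genes in that contrast are therefore a description and carry no test.

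RNA was sequenced from osteocytes, the cells embedded in mineralized bone, of 10 male C57BL/6 mice aged 8 weeks, with 1 library per mouse. The 5 control mice (No MM, libraries 1 to 5) carried no myeloma cells. The 5 myeloma-bearing mice (MM, libraries 6 to 10) had received vk12598 cells, a murine multiple myeloma line, by injection into the femur. The time between injection and isolation is not in the labels. Osteocytes were released from bone pieces by repeated collagenase and EDTA digestion after marrow cells had been removed, so cells that stay attached to bone can be carried along, and in such bulk RNA more cells of a type cannot be told apart from more RNA per cell.

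Trim proteins share a RING finger, which makes most of them E3 ubiquitin ligases, followed by a B-box and a coiled coil, and many end in a B30.2 domain that binds the target. Several are switched on by interferon, the cytokine alarm of infected cells, and act on viruses directly or on the signaling that follows. TRIM21 binds the constant part of antibodies inside cells and sends antibody-coated virus to the proteasome. TRIM30a lowers NF-κB signaling by driving the loss of the adaptors TAB2 and TAB3. Trim12a and Trim12c are mouse relatives of TRIM5, a restriction factor that recognizes the capsid of retroviruses.

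The cluster without Trim21 spans 263.4 kb (chr7:104244457-104507849, coordinates as in the table), and Trim21 lies 1.68 Mb away at chr7:102557922-102565469. Trim34a and Trim34b are on the plus strand and the other 7 genes on the minus strand. The start and end of 5 of the 9 genes are the same in the GENCODE M21 annotation of GRCm38. The span of Trim34a in the table, chr7:104244457-104340693, reaches over Trim5, Trim12a, Gm15133 and Trim34b and into Trim12c, whereas GENCODE M21 ends the gene at 104262234. Whether reads were counted by strand is not given in the sources used here.

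The letters near the start sites are shown because interferon acts through short promoter elements. RefSeq promoters (GRCm38.p6, 250 bases before to 50 after the start) were found for all 9 genes, with 2 windows for Trim30a, and were searched on both strands for the core of the interferon-stimulated response element, GAAANNGAAA. It was held by 6 of the 9 genes, against 3.443% of 32851 promoters of the same length (1131). The 30-base stretches below are written 5′ to 3′ on the strand of the gene, and capitals mark the match, which reads as its reverse complement where it lies on the opposite strand.
Trim34a, chr7:104244457-104244486, plus strand: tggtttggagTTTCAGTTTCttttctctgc
Trim12a, chr7:104315466-104315495, minus strand: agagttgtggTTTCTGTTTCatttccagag
Trim12c, chr7:104353359-104353388, minus strand: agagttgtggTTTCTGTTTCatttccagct
Trim30a, chr7:104465210-104465239, minus strand: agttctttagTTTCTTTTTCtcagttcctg
Trim30a, other window, chr7:104446104-104446133, minus strand: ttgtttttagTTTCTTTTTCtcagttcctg
Trim30d, chr7:104507871-104507900, minus strand: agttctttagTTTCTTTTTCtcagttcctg
Trim21, chr7:102565450-102565479, minus strand: cctctgagagGAAACTGAAAgtgaaatttg
Trim21, chr7:102565444-102565473, minus strand: agaggaaactGAAAGTGAAAtttggactgc

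The cluster genes carried the element on the strand opposite to the gene, and the 2 overlapping matches of Trim21 lay on its own strand. The stretch of Trim30d was the same as the first of Trim30a at 30 of 30 bases and as that of its other window at 26 of 30, and those of Trim12a and Trim12c at 28 of 30. The windows of Trim34b, Trim30b and Trim30c held no match to these letters. The gamma-activated site, TTCNNNGAA, was matched in 1 of the 9 genes, Trim30c, and in 8.298% of all promoters (2726). A match describes letters and not a site in use.

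Near-identical copies matter for the counts. Between the longest coding sequences in GENCODE M21, Trim34a and Trim34b were identical at 98.21% of 1451 aligned bases, Trim12a and Trim12c at 96.41% of 891, and Trim30a and Trim30d at 90.19% of 1488. The coding sequence of Trim12a is the shorter of its pair (891 bases against 1491), and that of Trim30b, at 609 bases, is the shortest of the 9. The least alike pair, Trim34b and Trim12c, was identical at 61.86%.

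Fewer stretches as long as a read were shared. Of all 76-base words in the annotated transcripts of Trim34a, 29.14% also occur in Trim34b, and 41.99% of those of Trim34b occur in Trim34a. For Trim12c the share was 16.42%, mostly with Trim5, and for Trim30a, Trim30d and Trim12a it lay between 4.957% and 5.351%. Trim30b shared 0.06499% of its words, and Trim30c and Trim21 shared 0. How reads that match several copies were counted is not given in the sources used here, so the levels of Trim34a, Trim34b and Trim12c carry that uncertainty.

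Depth overlapped between the groups. Total counts ran from 31099174 to 39466332 per library, with medians of 36625759 in No MM and 34022890 in MM (exact two-sided permutation test, p = 0.3254). A count of 3, taken as the floor, equals 0.0709 to 0.114 CPM (counts relative to the library total, scaled by the trimmed mean of M values), which covers counting error alone. All 7 osteocyte markers were detected in all libraries, with summed levels of 317.1 to 2493 CPM in No MM and 396.2 to 1755 CPM in MM. Libraries No MM 3 and No MM 4 stood apart, with 26.56% and 28.97% of their counts on immunoglobulin genes against 0.6365% to 3.862% elsewhere, and 7 plasma cell markers that summed to 9265 and 9283 CPM against 582.8 to 1266 CPM. Results are therefore also given without these libraries.

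Across all 10 mice the 9 genes covered a wide range of levels. Per kilobase of the gene length in the table, Trim30a had the highest mean, 12.6 CPM ± 4.99 (SD, n = 10), followed by Trim12c at 11.35 ± 4.43 and Trim12a at 10.35 ± 3.80. A middle group held Trim34a at 6.96 ± 2.47, Trim30b at 6.49 ± 4.10 and Trim21 at 6.17 ± 1.91 CPM per kilobase, with Trim30d below it at 4.24 ± 1.92. Trim30c, at 0.386 ± 0.275, and Trim34b, at 0.0848 ± 0.0276 CPM per kilobase, were the lowest of the 9.

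Neighbors in this order were compared within each mouse by exact two-sided sign-flip permutation tests over 10 mice, adjusted over the 8 pairs. Of these pairs, 5 differed. Trim12c exceeded Trim12a in 9 of 10 mice by a mean of 0.12 on the log2 scale (SD 0.12, adjusted p = 0.0188, exact). The tests measure spread between mice and do not cover a bias that all mice share, such as one from reads matching several copies. Of its 76-base words Trim12c shared 16.42% with other genes, and Trim12a shared 5.128%. Trim12a exceeded Trim34a by 0.56 ± 0.17 (log2, SD), Trim21 exceeded Trim30d by 0.62 ± 0.44, Trim30d exceeded Trim30c by 3.54 ± 0.78 and Trim30c exceeded Trim34b by 1.87 ± 0.80, each in 10 of 10 mice with the smallest adjusted p the tests gave (0.00391, exact permutation).

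The other 3 pairs did not differ beyond their spread. Trim30a was above Trim12c in 6 of 10 mice (log2 difference 0.18 ± 0.34, adjusted p = 0.152, exact permutation), and Trim34a above Trim30b in 7 of 10 (0.32 ± 0.60, adjusted p = 0.152, exact permutation). Trim30b and Trim21 had a mean log2 difference of -0.17 ± 0.79, opposite to the order of their means, and Trim30b was the higher in 3 of 10 mice (adjusted p = 0.4902, exact permutation). The deposited FPKM values gave the same order, and 5 of its neighboring pairs differed. In the No MM mice alone, Trim21 moved ahead of Trim34a and Trim30b, and 6 of the 9 genes kept their rank.

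**Figure D1:**
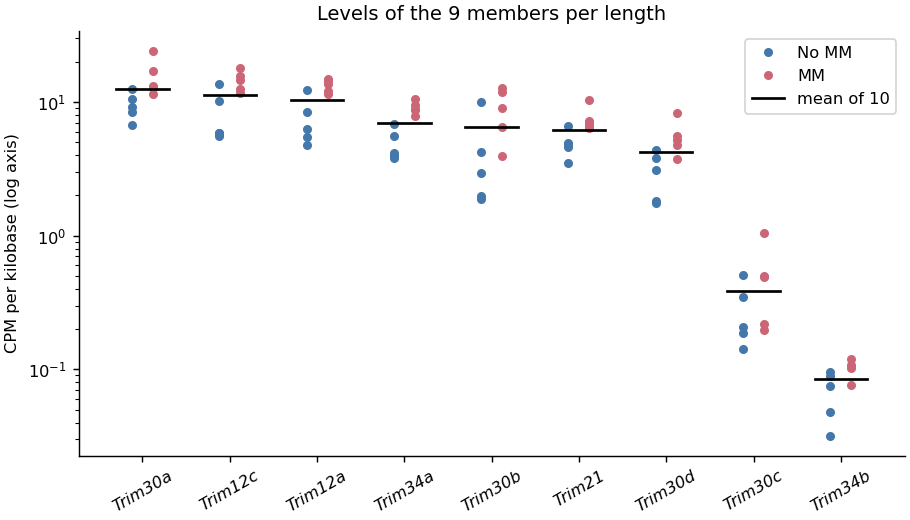
Levels of the 9 genes in CPM per kilobase of gene length on a log axis, with 1 point per mouse (blue No MM, red MM) and a black line at the mean of the 10 mice. The means of 7 genes lie between 4.24 and 12.6, while Trim30c (0.386) and Trim34b (0.0848) lie far below them.

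Trim34a, the gene that gave the cluster its place here, is a mouse counterpart of human TRIM34. It stood at 9.87, 14.4, 10.8, 10.2 and 17.8 CPM in libraries No MM 1 to 5 and at 20.3, 27.4, 22.4, 24.4 and 22.9 CPM in libraries MM 6 to 10. All 5 MM libraries were above all 5 No MM libraries, the nearest being No MM 5 below MM 6. The group means were 12.62 ± 3.43 and 23.45 ± 2.63 CPM (SD, n = 5 each), a log2 fold change of 0.89 (SE 0.20), or 0.72 (SE 0.21) without No MM 3 and No MM 4. Its groups overlapped under none of the 17 alternatives run. For the alternatives that left libraries out this was all but fixed beforehand, since dropping libraries from separated groups can bring overlap only through rescaling. Over all 16186 tested genes, 0.729% (118) were higher in MM without overlap and 0.68% (110) were lower, and since this contrast picked the gene nothing is read from that share.

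Trim34b, its near-identical copy, was barely detected. It had 2 to 7 counts per library in No MM and 6 to 9 in MM, and did not pass the filter on low counts. In CPM its values were 0.152, 0.197, 0.0646, 0.182 and 0.0980 in No MM 1 to 5 and 0.155, 0.243, 0.213, 0.221 and 0.208 in MM 6 to 10. The groups overlapped, the No MM 3 value was under the 3-count floor, and with no filter the fitted log2 fold change was 0.59.

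Trim12a stood at 20.3, 31.2, 17.8, 23.4 and 45.9 CPM in No MM 1 to 5 and at 43.1, 55.5, 45.3, 50.5 and 53.2 CPM in MM 6 to 10. No MM 5 reached into the MM range, and the other 4 controls were below all MM libraries. The means were 27.7 ± 11.3 and 49.5 ± 5.25 CPM (SD, n = 5 each), a log2 fold change of 0.84 (SE 0.25), or 0.59 without No MM 3 and No MM 4.

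Trim12c, which in cell culture works with the ligase TRAF6 to raise interferon and NF-κB signaling, ran in parallel. Its values were 21.8, 38.1, 20.7, 21.8 and 51.3 CPM in No MM 1 to 5 and 43.5, 67.5, 46.4, 54.9 and 58.4 CPM in MM 6 to 10. Again No MM 5 alone of the controls lay within the MM range. The log2 fold change was 0.82 (SE 0.27), from 30.8 ± 13.6 to 54.1 ± 9.60 CPM (SD, n = 5 each), and 0.53 without No MM 3 and No MM 4.

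Trim30a, the inhibitor of NF-κB signaling and the gene with the highest mean level of the 9, though not separable from Trim12c, stood at 31.8, 39.4, 34.8, 25.2 and 46.7 CPM in No MM 1 to 5 and at 43.5, 91.3, 64.1, 48.1 and 49.98 CPM in MM 6 to 10. MM 7 was the highest library and MM 6 fell below No MM 5. The means were 35.6 ± 8.08 and 59.4 ± 19.4 CPM (SD, n = 5 each), a log2 fold change of 0.74 (SE 0.24), or 0.58 without No MM 3 and No MM 4.

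Trim30d had 5.75, 12.6, 10.2, 5.95 and 14.3 CPM in No MM 1 to 5 and 12.3, 27.1, 18.2, 17.1 and 15.7 CPM in MM 6 to 10. MM 6 lay below the 2 highest controls and the other 4 MM libraries above all controls. The log2 fold change was 0.89 (SE 0.31), from 9.74 ± 3.84 to 18.1 ± 5.52 CPM (SD, n = 5 each), and 0.72 without No MM 3 and No MM 4.

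Trim30b varied most among the well-detected genes. It stood at 7.01, 14.8, 10.3, 6.61 and 34.8 CPM in No MM 1 to 5 and at 13.8, 31.8, 22.7, 41.7 and 44.4 CPM in MM 6 to 10. No MM 5 was above 3 of the 5 MM libraries. Its log2 fold change was the largest of the 8 tested genes and had a wide error, 1.07 (SE 0.49), from 14.7 ± 11.7 to 30.9 ± 12.9 CPM (SD, n = 5 each). It was 1.68 without No MM 5 and 0.70 without No MM 3 and No MM 4.

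Trim30c was sparse, with 6 to 28 counts per library in No MM and 11 to 60 in MM. Its values were 0.533, 0.788, 0.291, 0.218 and 0.319 CPM in No MM 1 to 5 and 0.776, 1.62, 0.756, 0.303 and 0.338 CPM in MM 6 to 10. MM 7 alone exceeded the highest control, and MM 9 and MM 10 were among the controls. The log2 fold change of 0.81 (SE 0.53) came to 0.34 without MM 7 and to 0.45 without No MM 3 and No MM 4.

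Trim21, the cytosolic antibody receptor, stood at 13.4, 13.7, 9.66, 12.7 and 18.4 CPM in No MM 1 to 5 and at 17.9, 28.8, 20.1, 17.6 and 18.9 CPM in MM 6 to 10. MM 6 and MM 9 were below No MM 5, and MM 7 was far above the rest. The log2 fold change was the smallest of the 8, 0.61 (SE 0.22), from 13.6 ± 3.14 to 20.7 ± 4.67 CPM (SD, n = 5 each), and 0.43 without No MM 3 and No MM 4. The lowest values were those of the plasma-cell-rich libraries No MM 3 and No MM 4, at 9.66 and 12.7 CPM, with No MM 1 next at 13.4 CPM. Such low values were not particular to Trim21, as No MM 3 and No MM 4 were each the lowest library for 3 of the 8 tested genes. A link to the antibodies of these libraries was not tested.

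**Figure D2:**
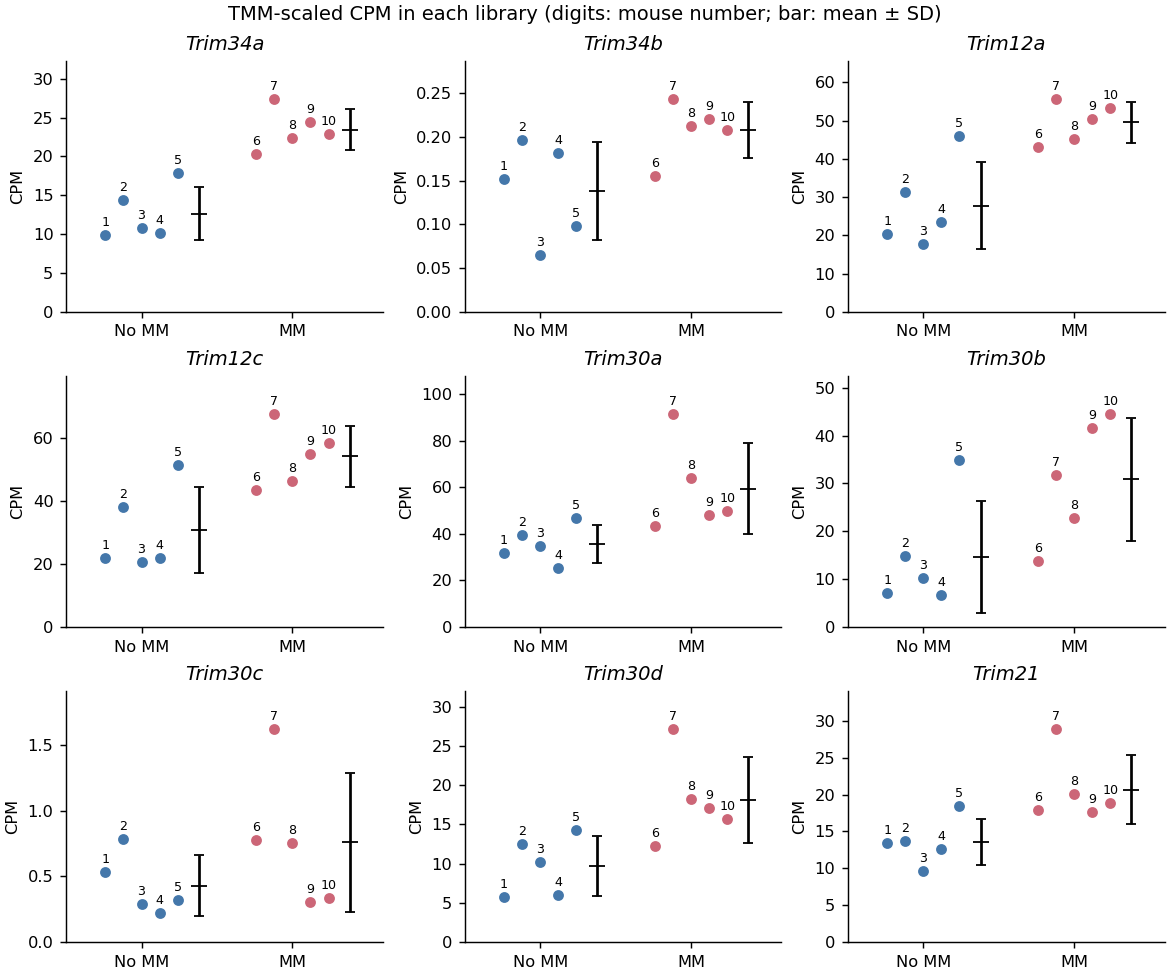
CPM of each of the 9 genes in the 5 No MM (blue) and 5 MM (red) libraries, with the mouse number above each point and the group mean ± SD as a black bar. Trim34a is the 1 gene of the 8 tested whose groups do not overlap, and No MM 5 is the highest control for Trim34a (17.8 CPM), Trim12a, Trim12c, Trim30a, Trim30b, Trim30d and Trim21.

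Over the 8 genes that passed the filter, all fold changes were above 0, from 0.61 to 1.07 with a median of 0.83, and 0.59 without No MM 3 and No MM 4. The 6 genes with the response element in their promoter lay between 0.61 and 0.89, and Trim30b and Trim30c, without a match, were at 1.07 and 0.81. The median over all 16186 tested genes was -0.03, and 47.3% of them were above 0. By edgeR's quasi-likelihood test 0 genes of the table passed an adjusted p of 0.05 (0% of tested genes, smallest adjusted p = 0.315), while 617 higher genes (3.81%) and 1664 lower genes (10.3%) had an unadjusted p under 0.05. DESeq2 called 34 higher and 155 lower at an adjusted p under 0.05.

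The count of genes without overlap depended on single libraries. It was 1 of 8 with all libraries, 5 of 8 without No MM 5 (Trim34a, Trim30a, Trim12a, Trim12c and Trim21) and 3 of 8 without MM 6 (Trim34a, Trim30a and Trim30d). The same share of all tested genes was 3.55% without No MM 5 and 2.71% without MM 6.

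**Figure D3:**
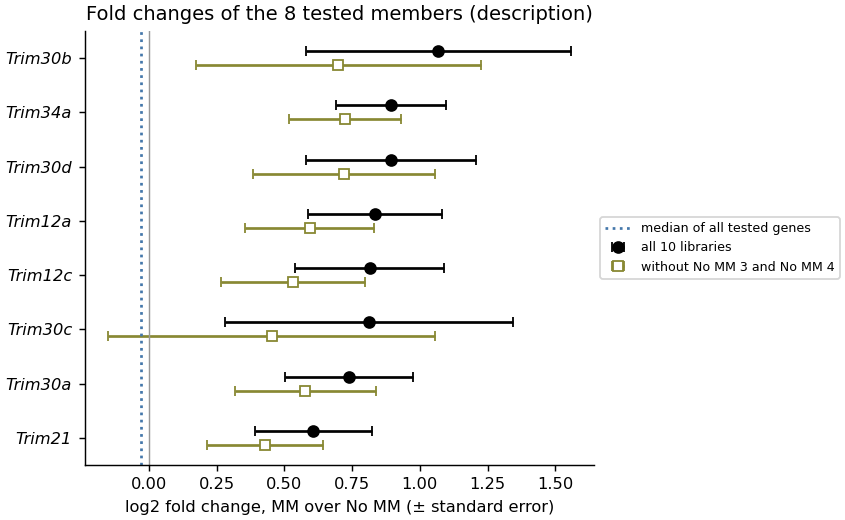
Log2 fold change of MM over No MM for the 8 tested genes with its standard error, from all 10 libraries (black circles) and without No MM 3 and No MM 4 (open squares). All 8 lie to the right of the dotted median of all tested genes (-0.03) in both fits, between 0.61 and 1.07 with all libraries and between 0.43 and 0.72 without the pair.

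The same libraries recurred at both ends. MM 7 was the highest library for 7 of the 8 tested genes and MM 10 for Trim30b. The lowest was No MM 3 for 3 genes, No MM 4 for 3 and No MM 1 for 2. Summed over all 9 genes, with Trim34b, the controls held 110.7, 165.1, 114.5, 106.2 and 229.7 CPM. The MM libraries held 195.2, 331.3, 240.1, 254.9 and 264.0 CPM, so No MM 5 was above MM 6.

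How alike the genes were beyond the contrast was read from log2 CPM across the 10 libraries after each group's mean was taken off. Over the 28 pairs of the 8 tested genes Pearson's r had a median of 0.725 and was above 0.5 in 22, from -0.17 (Trim30b with Trim30c) to 0.971 (Trim34a with Trim12c, Spearman's rho 0.903). How often pairs of all tested genes exceed 0.5 was not computed, so the count of 22 is not read as particular to these genes. Without No MM 3 and No MM 4 the median was 0.688, and without No MM 5 it was 0.584, the lowest of the alternatives run. All pairs share libraries and their depth, and in the table the span of Trim34a overlaps those of Trim12a and Trim12c, so these values are a description.

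The genes fell into a tight core and a looser rim. Trim34a, Trim12a and Trim12c had r of 0.917 to 0.971 with one another, and Trim30b joined them at 0.817 to 0.875. Trim30a had its highest r among the 8 with Trim30d (0.879) and a lower one with Trim12a (0.533), but without No MM 3 and No MM 4 its highest was with Trim21 (0.933), above Trim30d (0.854). Trim30d had an r of 0.885 with Trim34a. Trim21, 1.68 Mb from the rest, had r of 0.707 to 0.758 with Trim34a, Trim30a, Trim12a and Trim12c. With Trim30b, Trim30c and Trim30d its r was lower, 0.463 to 0.558, and its Spearman's rho with Trim34a was 0.4545. Trim30c, of few counts, had r of 0.0851 to 0.2195 with Trim34a, Trim12a and Trim12c.

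Ratios within each library show the same grouping on the scale of levels per kilobase. Trim12a was 0.822 to 1.08 times Trim12c over the 10 mice, a coefficient of variation of 8.53%, and Trim34a was 0.501 to 0.755 times Trim12c, a coefficient of 12.3%. Trim30b ranged most against Trim30a. It was 0.800 times Trim30a in No MM 5, 0.930 in MM 9 and 0.954 in MM 10, and between 0.237 and 0.402 times in the other 7 libraries, which include both groups. Trim30d stayed between 0.208 and 0.409 times Trim30a.

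**Figure D4:**
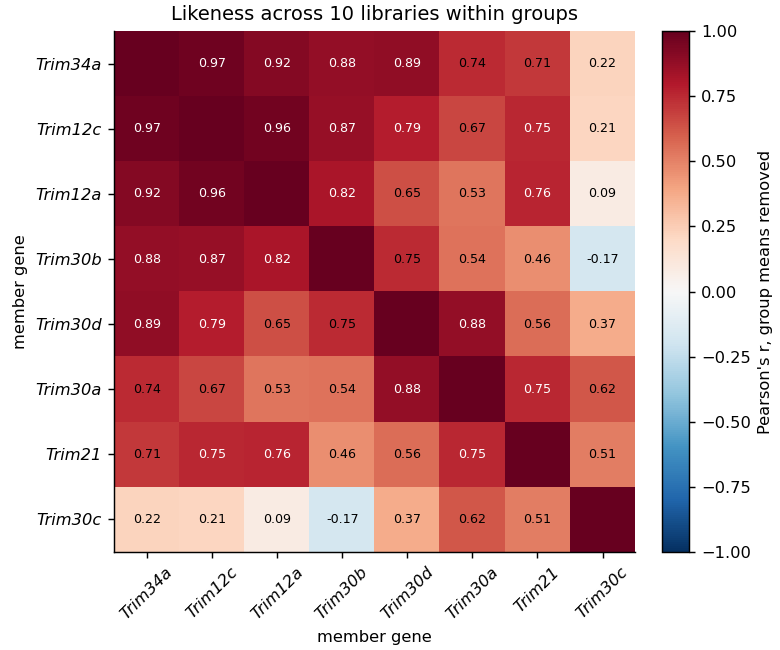
Pearson's r between the 8 tested genes across 10 libraries, from log2 CPM with the group means removed, as a colored grid with each value printed. Trim34a, Trim12c and Trim12a form the darkest corner (0.917 to 0.971), and Trim30c is the palest row, reaching -0.17 with Trim30b.

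Among all tested genes, the 5 with the highest within-group r to Trim34a were Cd44 (0.973), which encodes a hyaluronan receptor, Trim12c (0.971), Il18r1 (0.954), a subunit of the interleukin 18 receptor, Ipcef1 (0.94) and 2810001G20Rik (0.938). Without the 2 libraries farthest from the median of Trim34a, No MM 2 and No MM 5, these values were 0.847 to 0.942. Cd44 had a log2 fold change of -0.04 between the groups and Il18r1 of 1.08, so likeness within groups went with unlike differences between them. Trim12a ranked 10 among all genes by this measure, Trim30d 41, Trim30b 59, Trim30a 527, Trim21 709 and Trim30c 5824.

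To Trim30a the closest were Irg1 (0.913), whose enzyme makes itaconate in activated macrophages, Ifit2 (0.885), an interferon-induced RNA-binding antiviral gene, Fgl2 (0.881), Trim30d (0.879) and the immunoglobulin variable gene Igkv8-16 (0.873). Without MM 7 and No MM 5 they had r of 0.704 to 0.947. The 10 points come from digests of bone that hold several cell types.

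Of the genes in and within 100 kb of the cluster or Trim21 that are not among the 9, 4 of 8 were tested. Trim5, the retroviral restriction factor that shares 76-base words with Trim12c, stood at 6.96 ± 3.56 CPM in No MM and 14.4 ± 2.24 CPM in MM and passed the unadjusted threshold (log2 fold change 1.04, SE 0.35), but its groups overlapped and the edgeR adjusted p was 0.3145. Trim6, a ligase that supports interferon signaling, had a log2 fold change of 0.70 (SE 0.35) and Gm15133 of 0.87 (SE 0.42), and neither passed. Rrm1, a ribonucleotide reductase subunit with no part in the Trim family, was at -0.29 (SE 0.34). Olfr652, Trim30e-ps1, Gm16464 and Gm15135 had at most 23 counts in any library and were not tested.

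Trim genes outside the 9, among them the neighbors Trim5 and Trim6, spread to both sides of 0. Of 50 such genes 41 were tested, and 23 were above 0 and 18 below, with a median log2 fold change of 0.08. At an unadjusted p under 0.05, 2 were higher (4.878% against 3.81% of all genes), Trim5 and Trim36 (0.87, SE 0.36), and 1 was lower (2.439% against 10.3%), Trim28 (-0.60, SE 0.25, and -0.17 without No MM 3 and No MM 4), a corepressor of retroelements. The lowest fold changes were those of Trim7 (-1.17) and Trim68 (-1.16), which turned to 0.97 and 0.63 without No MM 3 and No MM 4. The difference between these genes and the cluster was not tested.

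Interferon-stimulated genes were read next, since the cluster belongs to that response. Of 37 tested type I interferon-stimulated genes, 31 were above 0 and 6 below, with a median log2 fold change of 0.41, or 0.30 without No MM 3 and No MM 4. Mx1, Mx2, Oas1b, Herc6, Sp100 and Eif2ak2, 6 genes in all, were higher at an unadjusted p under 0.05 (16.22%, against 3.81% of all tested genes), 0 were lower (against 10.3%), and 0 passed an adjusted p of 0.05 by edgeR or DESeq2. All 37 overlapped between the groups.

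The largest of these belonged to Mx1, a gene of the dynamin-like GTPase family (6.17 ± 3.47 CPM in No MM, 14.2 ± 4.48 in MM, log2 fold change 1.20, SE 0.40, edgeR adjusted p = 0.3145), and Oas2, which makes the second messenger that turns on RNase L (0.98, SE 0.47). The lowest were Helz2 (-0.61, SE 0.53) and Zbp1, a sensor of Z-form nucleic acid (-0.58, SE 0.57), which turned to 0.80 and 0.42 without No MM 3 and No MM 4.

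Of 15 tested GTPase genes induced by interferon gamma, 11 were above 0 and 4 below (median 0.15, and 0.64 without No MM 3 and No MM 4). The guanylate-binding protein gene Gbp8 alone passed the unadjusted threshold (0.96, SE 0.43), which is 6.667% of the list against 3.81% of all tested genes. Gbp6 was at 0.80 (1.40 without that pair), while Gbp5 (-0.49) and Gbp3 (-0.55) were the lowest and turned to 0.48 and 0.39 without that pair. Among 22 sensors and regulators of interferon signaling, 16 were above 0 and 6 below with a median of 0.20, and 0 passed either threshold. Irf8, a transcription factor of myeloid cells (0.56, SE 0.34, and 0.11 without the pair), and the RNA sensor gene Ifih1 (0.51, SE 0.26, and 0.24 without the pair) were the highest, and Tyk2, the kinase of the interferon receptor (-0.67, 0.29 without the pair), and the feedback inhibitor Socs1 (-1.01, -0.13 without the pair) the lowest.

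Over these 3 interferon lists, 7 genes were higher at the unadjusted threshold and 0 lower. Leaving out MM 7 left 2 higher, leaving out No MM 2, No MM 4 or MM 8 left 4, and leaving out MM 9 gave 11. Over all tested genes, 617 of 16186 were higher with all libraries and 421 of 16377 without MM 7. That count was 736 without No MM 2, 376 without No MM 4, 370 without MM 8 and 407 without MM 9.

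Genes whose proteins are partners or targets of the cluster's ligases were also listed. Of 15 tested, 9 were above 0 and 6 below (median 0.15). Nlrp3, the inflammasome sensor that TRIM30 restrains, was the 1 past the unadjusted threshold (6.667%, against 3.81%), from 7.80 ± 3.98 CPM in No MM to 16.3 ± 2.82 in MM (log2 fold change 1.07, SE 0.37, edgeR adjusted p = 0.3145, and 0.64 without No MM 3 and No MM 4). Tab3, an adaptor that TRIM30 degrades, was at 0.50 (SE 0.25, and 0.30 without that pair), Vcp, the unfoldase that works with TRIM21, at -0.35 (SE 0.19) and Ppia, cyclophilin A, which modulates capsid recognition by TRIM5, at -0.43 (SE 0.23).

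**Figure D5:**
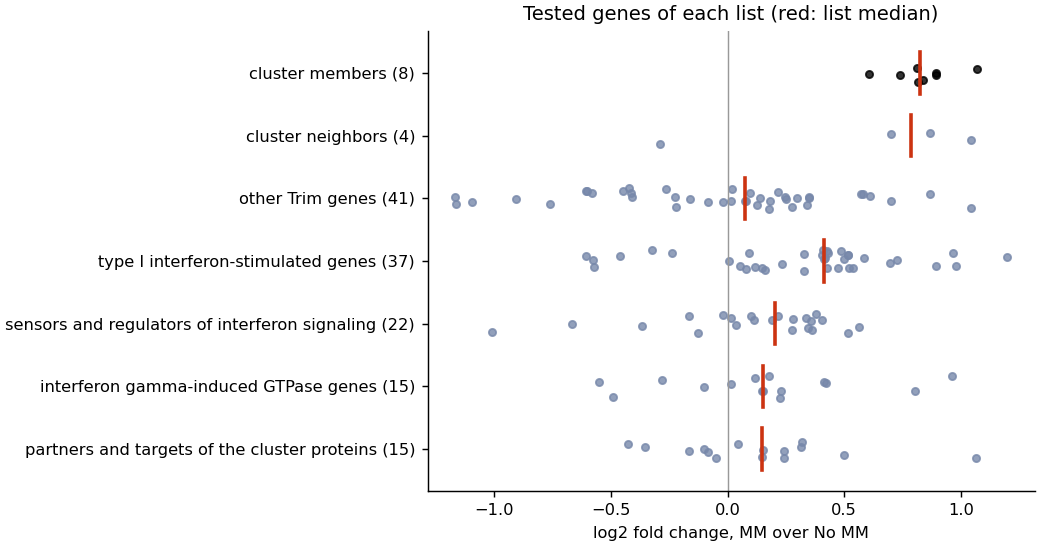
Log2 fold changes of MM over No MM for the tested genes of the cluster (black) and of 6 lists (blue gray), with the list median in red and the number of genes in brackets. The 8 cluster genes lie between 0.61 and 1.07, while the lists of other Trim genes and of interferon genes reach both sides of 0, with medians of 0.08 for other Trim genes and 0.41 for type I interferon-stimulated genes. The 4 tested cluster neighbors have a median of 0.784, with Rrm1 below 0. Trim5 and Trim6 are in that list and also among the other Trim genes.

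Blood cells express the cluster genes too, so their markers are given beside these values. Dendritic cell markers were above 0 in 7 of 7 genes, with summed levels of 44.0 to 96.3 CPM in No MM and 86.6 to 140.7 CPM in MM, and none of the 7 was at 0 in any library. Of them 2 passed the unadjusted threshold (Clec9a and Zbtb46), against 3.81% of all tested genes, and 1 did not overlap, against 0.729%. The study had already named Clec9a as raised in MM from these data, so nothing is read from these shares. Neutrophil markers were above 0 in 8 of 8 genes with 0 past the threshold, and their sums overlapped widely (6873 to 31880 CPM in No MM, 9840 to 29630 CPM in MM). Monocyte and macrophage markers were above 0 in 7 of 9 genes and below 0 in 2, Ly6c2 (-0.69) and Cd68 (-0.09). Of the 9, 1 passed the threshold (Ccr2, log2 fold change 1.08), against 3.81% of all tested genes. These markers summed to 756.7 to 2327 CPM in No MM and 1310 to 1906 CPM in MM. B cell markers were above 0 in 6 of 8 tested genes (median log2 fold change 0.678) with 0 past the threshold. They summed to 173.9 to 362.6 CPM in No MM and 187.5 to 448.8 CPM in MM. Their sum holds 2 entries of Cr2. The tested entry ran from 0.4355 to 8.242 CPM, and the untested entry was at 0 in at least 1 library. T and NK cell markers were above 0 in 6 of 8 genes (median 0.274) with 0 past the threshold. Their sums were 42.97 to 138.2 CPM in No MM and 83.76 to 148.8 CPM in MM. The plasma cell markers were lower in MM at the unadjusted threshold in 7 of 7 genes (median log2 fold change -2.1), against 10.3% of all tested genes. Their sums were 9265 and 9283 CPM in No MM 3 and No MM 4, but 582.8 to 1093 CPM in the other controls and 694.7 to 1266 CPM in MM. The groups overlapped for all 7, so the lower values rest on that pair of controls. Of the osteoclast, endothelial, erythroid and skeletal muscle markers 0 passed the unadjusted threshold. The part of these cells in the values of the cluster was not tested.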

How the data were processed

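The deposited table holds, per the file headers, read counts and FPKM values per gene for all 10 libraries, with coordinates and gene lengths. The authors prepared stranded total RNA libraries (76-bp paired-end), and the submitters' processing notes name FastQC 0.11.5 and STAR. The counting tool and build are not given in the sources used here. The 9 genes and all lists were chosen with earlier results of these data known.

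Counts were fitted with edgeR 4.0.16 in R 4.3.3 (filterByExpr, TMM scaling, quasi-likelihood test, Benjamini-Hochberg over 16186 genes, threshold 0.05), after the fit was tested on simulated data. DESeq2 1.42.0, other scalings and filters, and libraries left out were alternatives. The study's text speaks of a paired differential analysis, but the labels pair no mice, so MM and No MM were compared unpaired. Levels between genes were CPM per kilobase (pseudocount 0.01 in log2 differences) and log2 CPM used a prior count of 2. FPKM, as deposited, served to check the order of levels. Named genes are the 9, the tested neighbors within 100 kb, the 2 highest and 2 lowest fold changes of each other list, and the 5 genes most like Trim34a and Trim30a. Genes past the unadjusted threshold, those without overlap, untested neighbors, Cr2, Ccr2, Ly6c2 and Cd68 were named after their values were seen. Coding sequences and 76-base words came from GENCODE M21 and promoters from RefSeq. Protein sequences were not used, and coding sequences were compared instead. Replicates are separate mice.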

Additional observations from a re-analysis of the deposited data

Results flagged for a closer look

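In 2 of 18 sets (9 genes in 2 groups of 5 libraries) the most extreme library stood apart by more than 0.71 of the range of its group, where chance alone gives about 0.9 such sets. Trim30b in No MM was highest in No MM 5 at 34.84 CPM, against 6.605 to 14.75 CPM in the other 4 controls, a gap of 0.7115 of the range. Trim21 in MM was highest in MM 7 at 28.84 CPM, against 17.61 to 20.13 CPM in the other 4 libraries, a gap of 0.7756 of the range.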

How the results depend on the processing

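All 135 fitted fold changes of the tested cluster genes over 17 alternatives were above 0. With 1 library left out, the median fold change lay between 0.712 and 1.061, the number of genes without overlap between 1 and 5, and the number of interferon genes past the unadjusted threshold between 2 and 11 higher and between 0 and 1 lower, against 7 and 0 with all libraries. Upper-quartile scaling gave 11 higher and DESeq2 13. Over all tested genes these gave 673 of 16186 and 865 of 16120, against 617 of 16186 in the main fit. DESeq2 called 34 higher and 155 lower genes over the table at an adjusted p under 0.05 where edgeR called 0. The cause of these differences was not tested. With at least 10 counts in every library Trim30c gave no value. No paired analysis was possible because the labels match no control mouse with a myeloma-bearing mouse. Depth limits Trim34b, with at most 9 counts, and Trim30c, with at most 60.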
